A study of Mus musculus with 7 samples.

Results

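Lymphatic endothelial cells line the vessels that drain fluid, macromolecules and leukocytes from a tissue back to the blood. Their identity is set by the homeobox factor Prox1 on a venous background of Nr2f2 and Sox18, and their growth depends on the receptor Flt4 (VEGFR3) and its ligands Vegfc and Vegfd. Initial lymphatics carry the hyaluronan receptor Lyve1 and the chemokine Ccl21a, which draws dendritic cells and T cells into the vessel, whereas larger collecting vessels hold valves marked by Foxc2, Cldn11 and Itga9.

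Lymphatic endothelial cells in libraries labelled as mouse seminal vesicle, the gland that supplies most of the seminal fluid, were chosen here by the transcripts they carried. A cell was taken when it had at least 500 detected genes, at most 10% mitochondrial unique molecular identifiers (UMIs, the count of distinct RNA molecules), at least 1 UMI of Prox1 or Mmrn1, at least 1 UMI of Lyve1 or Flt4, no more than 2 UMIs of C1qa, C1qb and C1qc together, and no UMI of Ptprc, the pan-leukocyte surface protein CD45. Of 53352 deposited cells 40342 passed the filters on genes and mitochondrial share, and 236 of these met every condition. The study's methods state a stricter mitochondrial limit than the one used here. At a limit of 1%, 43 of the 236 cells (18.2%) would remain. The other endothelial cells served for comparison. They were the 2003 cells with at least 1 UMI of Pecam1 or Cdh5, at least 1 UMI of Flt1 or Emcn, no UMI of Prox1 or Mmrn1, and the same limits on leukocyte genes, and they are called blood endothelial cells below. The remaining 38103 cells are called other cells.

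The study dissociated seminal vesicles of 23 wild-type male mice with enzymes and sequenced single-cell libraries by droplet capture, to catalogue the cell types of the gland. The aging pool held 10 C57BL/6J mice on chow whose cells were tagged by mouse and run together: Y1 and Y2 at 3 months, 20C1 and 20C2 at 20 months, 20R1 and 20R2 at 20 months after rapamycin, 28C1 and 28C2 at 28 months, and 28R1 and 28R2 at 28 months after rapamycin, an inhibitor of the growth kinase mTOR. The diet pool held 8 FVB/NJ mice at 3 months, tagged in the same way, with 2 mice each on caloric restriction (CR1, CR2), control (Ctrl1, Ctrl2), high fat (HF1, HF2) and low protein (LP1, LP2) food. The other 5 mice were FVB/NJ and had a library each: young (3 months) and old (18 months) on control food, and 3 mice at 3 months on control (Con), high fat (HF) or low protein (LP) food. Every aging-pool mouse was C57BL/6J and every other mouse FVB/NJ, so strain, run and most of the age range cannot be told apart between the sets.

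The libraries of the young and the old individual stood apart from all others. Over all their cells the seminal vesicle secretory transcript Svs5 made up 3.55 and 3.04 CPM (the UMIs of a gene relative to all UMIs of the cells, on the scale usual for count data), against 34607 to 340816 CPM in the other 21 mice. Their 86 lymphatic endothelial cells instead carried epididymis marker RNA (Gpx5, Lcn8, Lcn9, Crisp1, Adam7) at 16620 CPM, which was at 0 in the lymphatic endothelial cells of every other mouse. These values go against the tissue label for 86 of the 236 cells. Without the 2 libraries 150 lymphatic and 616 blood endothelial cells remain, with median depths of 4705 and 1867 UMIs.

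Secretory RNA was the largest sum of the 13 marker lists in lymphatic endothelial cells of the other mice, except in HF2 and LP2, where smooth muscle and pericyte markers were higher (7117 and 7231 CPM against 3410 and 3860 CPM). The 8 secretory epithelium markers summed to 73418 CPM in lymphatic endothelial cells, 35657 CPM in blood endothelial cells and 424985 CPM in other cells, led by Svs5 with 47891 UMIs in lymphatic endothelial cells. The sum was highest in the lymphatic endothelial cells of LP (339684 CPM), CR1 (249709 CPM), Y2 (196435 CPM) and 20C2 (118424 CPM). It lay between 1571 and 2115 CPM in Ctrl1, HF1 and CR2, and at 9.70 and 23.8 CPM in young and old. Without young and old the order of the endothelial classes turned, with 86145 CPM in lymphatic and 99245 CPM in blood endothelial cells. In the comparisons below, leaving out the genes of the epithelial lists gave 561 higher and 724 lower genes against blood endothelial cells (585 and 710 with them). Against all other cells it gave 1437 and 4844 (1735 and 4196 with them). Between the pools 9 genes and for age 2 genes were called either way. The part of this RNA in other genes was not tested.

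The 4 genes that chose the cells were present in most of them. Mmrn1 was detected in 227 cells, Lyve1 in 217, Flt4 in 187 and Prox1 in 155, and 121 cells (51.3%) held all 4, 72 held 3 and 43 held 2. Genes outside the choice were carried by the same cells. Ccl21a was detected in 227 of 236 cells (96.2%), Reln in 196 (83.1%) and the glycoprotein Pdpn in 155 (65.7%), and 200 cells had a UMI of Pecam1 or Cdh5. In blood endothelial cells Ccl21a was detected in 0.999% and in other cells in 1.24%, so the label fits markers the rule did not use. The median depth was 3065 UMIs per lymphatic and 1931 per blood endothelial cell. After each cell was thinned to 1000 UMIs, which left out 27 lymphatic and 270 blood endothelial cells, Ccl21a was still detected in 94.7% against 0.346% of cells, Fgl2 in 77.5% against 3.35%, Reln in 60.8% against 0.173%, Maf in 39.2% against 0.635% and Nr2f2 in 27.8% against 4.67%.

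Some cells inside the rule lay close to its limits. Exactly 1 UMI of Prox1 and Mmrn1 together was held by 23 cells, 17 of them with Ccl21a. Exactly 1 UMI of Lyve1 and Flt4 together was held by 25 cells, 17 of them with Ccl21a. Of the 11 cells with exactly 1 UMI of each gene pair, 5 carried Ccl21a, whereas 198 of the 199 cells with at least 2 UMIs of each pair did. Outside the rule, 209 cells had Prox1 or Mmrn1 but neither Lyve1 nor Flt4, and 20 of them (9.57%) carried Ccl21a. Another 338 cells had Lyve1 or Flt4 but neither Prox1 nor Mmrn1, and 17 (5.03%) carried it. Cells that met both gene conditions but not another limit mostly carried it: all 37 cells with under 500 genes had Ccl21a, and so did 14 of 16 cells removed for a Ptprc UMI. In all, Ccl21a was detected in 471 other cells and 20 blood endothelial cells.

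Apart from secretory and epididymis RNA, markers of other cell types summed to at most 860 CPM over the 236 cells. The macrophage genes Adgre1, Csf1r, Fcgr1 and Cd163 were at 0 in all 236 cells, and the 6 macrophage markers summed to 4.51 CPM against 78.2 CPM in other cells. B cell, Schwann cell and mesothelium markers were at 0, the 6 T and NK cell markers reached 10.3 CPM with Nkg7 at 0, the 4 platelet markers 5.16 CPM with Ppbp and Gp9 at 0, and the 4 globin genes 2.58 CPM against 1891 CPM in blood endothelial cells. Fibroblast markers summed to 244 CPM (led by Dcn, 206 UMIs) and smooth muscle and pericyte markers to 304 CPM (led by Acta2, 184 UMIs), against 369 and 753 CPM in blood endothelial cells. These sums pool sets of mice with unlike levels: in lymphatic endothelial cells of the aging pool, the diet pool, young and old, and the single diet libraries, fibroblast markers were at 140, 280.1, 711 and 176 CPM and muscle markers at 90.9, 1175, 545 and 176 CPM. The 4 basal epithelium markers reached 56.7 CPM against 355 CPM in blood endothelial cells, and the 3 prostate-like markers 860 CPM against 1040 CPM. The prostate-like sum rested on Y2, where it was 4090 CPM, against 0 to 252 CPM in the lymphatic endothelial cells of every other mouse. At least 3 UMIs of such markers occurred in 18 cells for fibroblast, 13 for muscle and 9 for basal epithelium.

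Across mice, lymphatic endothelial cells made up 22.0% ± 16.3 (SD, n = 23) of all endothelial cells, with a median of 15% and a range of 0% to 54.5%. They were found in 22 of 23 mice. In Ctrl2 none was among 13 endothelial cells, for which the Wilson 95% interval reaches 22.8%. Without young and old the share was 23.5% ± 16.3 (SD, n = 21). Of all cells that passed the filters they were 1.02% ± 0.823 (SD, n = 23). These shares are of cells that survived dissociation and capture, and intervals on them cover counting error only.

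The share was highest in the aging pool. It was 35.7% ± 13.7 (SD, n = 10) there, with 85 lymphatic against 170 blood endothelial cells, and every one of the 10 mice lay at 15% or above, from 20R2 (15%) to Y1 (54.5%). In the diet pool it was 11.8% ± 10.6 (SD, n = 8), with 30 against 227 cells, and 7 of the 8 mice lay at 12.5% or below. The exception was CR1 at 36%, which overlapped the aging pool. The difference between the pools was 23.9 percentage points, larger than the spread between mice (exact permutation test over 43758 arrangements, two-sided, p = 0.00176, Benjamini-Hochberg adjusted over 5 share tests p = 0.00880). The 3 single diet libraries lay at 14.4% ± 4.57 (SD, n = 3), and the young and old individuals at 4.36% and 8.64%. Depth moved with the sets as well: the median lymphatic endothelial cell had 9084 UMIs in the aging pool, 4146 in the diet pool, 1768 in the young and old individuals and 1355 in the single diet libraries, against 2641, 2008, 1946 and 1198 for blood endothelial cells. With every cell thinned to 1000 UMIs before the classes were chosen, the difference between the pools was 30.9 points (exact permutation test, adjusted p = 0.00263), and as a share of all cells it was 1.29 points.

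**Figure D1:**
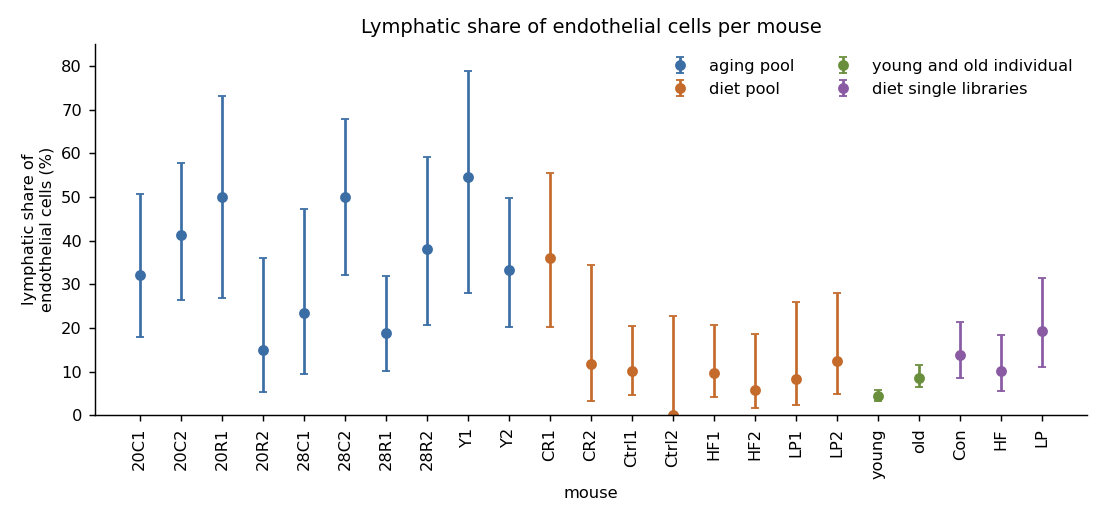
Share of lymphatic among all endothelial cells in each of the 23 mice, in percent, with Wilson 95% intervals as bars and colours for the 4 sets of mice. The 10 aging-pool mice lie between 15% and 54.5%, and the diet-pool mice between 0% and 12.5% except CR1 at 36%.

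None of the other 4 share tests passed. Mice of 3 months in the aging pool had 43.9% ± 15.0 (SD, n = 2) and those of 20 or 28 months 33.6% ± 13.6 (SD, n = 8), a difference of 10.4 points (exact permutation test, two-sided, p = 0.4, adjusted p = 0.5), which turned to -0.253 points without Y1 and to -0.0995 points as a share of all cells. With rapamycin the share was 30.5% ± 16.5 and without it 36.7% ± 11.4 (SD, n = 4 each) at 20 and 28 months, a difference of -6.25 points (exact permutation test within ages, two-sided, p = 0.611, adjusted p = 0.611, smallest possible p = 0.0556), which turned to 2.50 points without 20R2 and to 0.367 points without 28C2. The 4 diets of the diet pool gave 23.9% ± 17.1 under caloric restriction, 5.08% ± 7.19 on control, 7.66% ± 2.76 on high fat and 10.4% ± 2.95 on low protein food (SD, n = 2 each; exact permutation test of the F statistic, p = 0.267, adjusted p = 0.444). For the 3 diets present in both, the pooled mice had 7.72% ± 4.39 (SD, n = 6) and the single libraries 14.4% ± 4.57 (SD, n = 3), a difference of -6.71 points (exact permutation test, two-sided, p = 0.0714, adjusted p = 0.179, smallest possible p = 0.0119). That difference passed at -13.5 points after thinning to 1000 UMIs (exact permutation test, adjusted p = 0.0298) and was 0.165 points as a share of all cells. Beside the p-values of the other tests, no difference of any size could have passed for rapamycin or for 3 months against older mice (smallest possible p = 0.0222 for the latter in the exact permutation test).

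Lymphatic and blood endothelial cells were then compared within mice, to find which genes set these cells apart from the rest of the vasculature. UMIs were summed per mouse and class in the 16 mice with at least 5 cells of each class, and tested with edgeR's quasi-likelihood test with mouse as a block. Each level below is in CPM on the scale of that fit (TMM-scaled), each difference is a log2 fold change ± its standard error, and a gene passed at a Benjamini-Hochberg adjusted p under 0.05. Of 3342 genes tested, 585 (17.5%) were higher and 710 (21.2%) lower in lymphatic endothelial cells, with a median log2 fold change of -0.05. Without the young and old individuals 540 were higher and 558 lower, and without the aging pool 328 were higher and 359 lower. The counts of each list below stand beside the shares of 17.5% and 21.2% over all genes. The genes of the rule were not counted. Their mean levels were 3946 CPM for Lyve1, 3227 for Mmrn1, 885 for Flt4 and 479 for Prox1 in lymphatic endothelial cells, and Flt1, which chose blood endothelial cells, was at 31.5 against 1560 CPM. Genes that accompany the chosen genes from cell to cell are bound to separate the classes too, so the counts describe the 2 populations as defined.

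The chemokine Ccl21a (chr4:42772860-42773993, minus strand, GRCm38) led the higher genes. Its lowest, median and highest level over the 16 mice was 14388, 26830 and 39756 CPM in lymphatic endothelial cells, and it did not exceed 37.7 CPM in blood endothelial cells of any mouse. The groups did not overlap, and the difference was 11.93 ± 0.53 on the log2 scale (edgeR adjusted p = 1.86e-11). Before scaling, it was the most abundant transcript after the secretory Svs5 (33039 ± 52657 CPM) among genes other than mitochondrial and ribosomal ones, at 24510 ± 7807 CPM (SD, n = 16 mice). Svs4 and Svs2, also secretory, and the ferritin chain Fth1 completed the 5 most abundant, at 15033, 9378 and 12646 CPM. Near-identical copies of Ccl21a exist in the mouse genome, and reads could be split among them. Reln (chr5:21884454-22344702, minus strand), the secreted glycoprotein reelin, followed with 744, 1379 and 2075 CPM as lowest, median and highest level against at most 25.6 CPM, a difference of 9.02 ± 0.28. Neither gene was used to choose the cells, and in both every lymphatic value exceeded every blood endothelial value.

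The promoters of the leading genes were read from RefSeq on GRCm38.p6 for 8 of the 10 genes with the largest rise. They were searched on both strands for 3 letter strings: TGCTGA, the half-site of MAF factors, AGGTCA, the half-site of nuclear receptors such as Nr2f2, and ACAATG, a core bound by SOX factors. None of the 9 entries for the 8 genes held TGCTGA, 1 (Fndc1) held AGGTCA and 1 (Sema3a) held ACAATG, whereas 19.5%, 16.3% and 12.6% of all 32851 promoter windows of the same length did. The promoter of Mmrn1, a gene of the rule, held TGCTGA and ACAATG. Those of Ccl21a, the leading gene, and of Sema3a and Mmrn1, which hold a string, read as follows, 5′ to 3′ on the gene's strand, with any of the 3 strings or its reverse complement in capitals. A match is a string of letters and not a site. The windows of Sema3a and Mmrn1 lie inside the annotated genes and not at their outermost starts (chr5:13125414 and chr6:60924976).
Ccl21a, chr4:42773942-42774241, minus strand: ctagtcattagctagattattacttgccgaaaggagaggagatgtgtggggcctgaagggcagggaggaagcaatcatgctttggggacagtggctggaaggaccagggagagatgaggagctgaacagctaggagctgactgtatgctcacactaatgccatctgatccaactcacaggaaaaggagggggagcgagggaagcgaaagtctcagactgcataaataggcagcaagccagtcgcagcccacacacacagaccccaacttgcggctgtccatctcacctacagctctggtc
Sema3a, chr5:13396534-13396833, plus strand: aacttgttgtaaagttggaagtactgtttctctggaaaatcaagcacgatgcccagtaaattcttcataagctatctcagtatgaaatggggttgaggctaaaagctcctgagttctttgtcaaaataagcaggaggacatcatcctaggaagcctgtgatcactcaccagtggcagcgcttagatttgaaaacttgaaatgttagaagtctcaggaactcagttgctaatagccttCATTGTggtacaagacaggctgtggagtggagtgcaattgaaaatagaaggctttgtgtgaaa
Mmrn1, chr6:60944067-60944366, plus strand: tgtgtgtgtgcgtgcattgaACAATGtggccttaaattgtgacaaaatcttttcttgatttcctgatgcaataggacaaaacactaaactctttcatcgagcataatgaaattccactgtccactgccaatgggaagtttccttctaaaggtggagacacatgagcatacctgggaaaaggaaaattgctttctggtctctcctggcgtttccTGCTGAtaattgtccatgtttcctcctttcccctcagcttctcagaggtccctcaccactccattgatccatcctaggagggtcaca

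The other 8 leading genes covered receptors, signals and proteases. Mrc1 (chr2:14229392-14332057), the mannose receptor CD206 best known from macrophages, was at 91.4, 171 and 405 CPM as lowest, median and highest level against at most 0.808 CPM, a difference of 7.84 ± 0.35. Nts (chr10:102481756-102490486), which encodes the peptide neurotensin, was at 0, 1499 and 9494 CPM against at most 193 CPM, a difference of 7.76 ± 0.61 with overlapping groups. Sema3a (chr5:13125414-13602565), a guidance signal, was at 68.7, 129 and 270 CPM and had no UMI in any blood endothelial cell of the 16 mice. Pcsk6, a proprotein convertase, was at 68.7, 238 and 611 CPM against at most 6.23 CPM. In Mrc1, Sema3a and Pcsk6 the lowest lymphatic mouse exceeded the highest blood endothelial one, whereas Nts ranged from no UMI in HF1 to its highest value in Y1.

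Sema3a, Pkhd1l1, Apba2 and Lrrn4cl were at 0 in blood endothelial cells, so that only a bound can be given for the fold. Set against 3 counts over the 16 mice (0.610 CPM), pooled Sema3a was at least 219-fold higher, Pkhd1l1 at least 149-fold, Lrrn4cl at least 117-fold and Apba2 at least 93.4-fold. This floor rests mostly on young and old, with 2116297 and 1325961 blood endothelial UMIs, against at most 196700 in any other mouse. Without them the floor would be higher, and the bounds were not recomputed. Fndc1, a protein with fibronectin type III repeats, was at 0, 211 and 295 CPM against at most 20.8 CPM. Pkhd1l1, Apba2, Lrrn4cl and Fndc1 each had no UMI in the lymphatic endothelial cells of at least 1 mouse, so their groups overlapped at 0.

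The genes with the largest fall included regulators, transporters and surface proteins of blood vessels. Sox17, an arterial transcription factor, was at 0 in lymphatic endothelial cells of 15 of the 16 mice and at 10.4 CPM in the other, against 125, 247 and 478 CPM as lowest, median and highest level in blood endothelial cells, a difference of -7.53 ± 0.36. Ly6c1, a surface protein of blood capillaries, was at 0, 16.6 and 137 CPM against 545, 1157 and 1790 CPM, a difference of -5.71 ± 0.46. Abcb1a, the efflux pump P-glycoprotein, did not exceed 20.7 CPM against 51.1 to 491 CPM. The groups did not overlap in any of these 3 genes.

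Gcnt2, a glycan-branching enzyme, did not exceed 8.86 CPM against 25.6 to 203 CPM, and Eogt, which adds a sugar to EGF repeats, fell by 5.68 on the log2 scale. Plscr2 had no UMI in lymphatic endothelial cells and was 14.0 to 334 CPM in blood endothelial cells, so pooled it was at least 31.9-fold lower. The pooled blood endothelial level is again weighted towards young and old. Nostrin, which acts in the trafficking of endothelial nitric oxide synthase, fell by 5.34 on the log2 scale with overlapping groups. The calls for Hba-a1 and Ren1 rested on few mice, since the median blood endothelial level was 0 in both, and neither was called by DESeq2. Hba-a1 is the globin of red blood cells and Ren1 is renin.

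Fabp4, the fatty acid-binding protein of capillary endothelium, was lower in every set of mice but the young and old individuals. It was at 0, 20.8 and 280 CPM as lowest, median and highest level against 0, 1749 and 15464 CPM, with a difference of -5.97 ± 1.00 (edgeR adjusted p = 0.000143), lower in 14 and higher in 2 of 16 mice. Pooled by set, without scaling, it was 30.3 against 5335 CPM in the aging pool, 39.3 against 3265 CPM in the diet pool, 16.02 against 612 CPM in the single diet libraries, and 135 against 97.3 CPM in the young and old individuals. Without the aging pool the call was lost, at -3.67 (edgeR adjusted p = 0.0896).

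**Figure D2:**
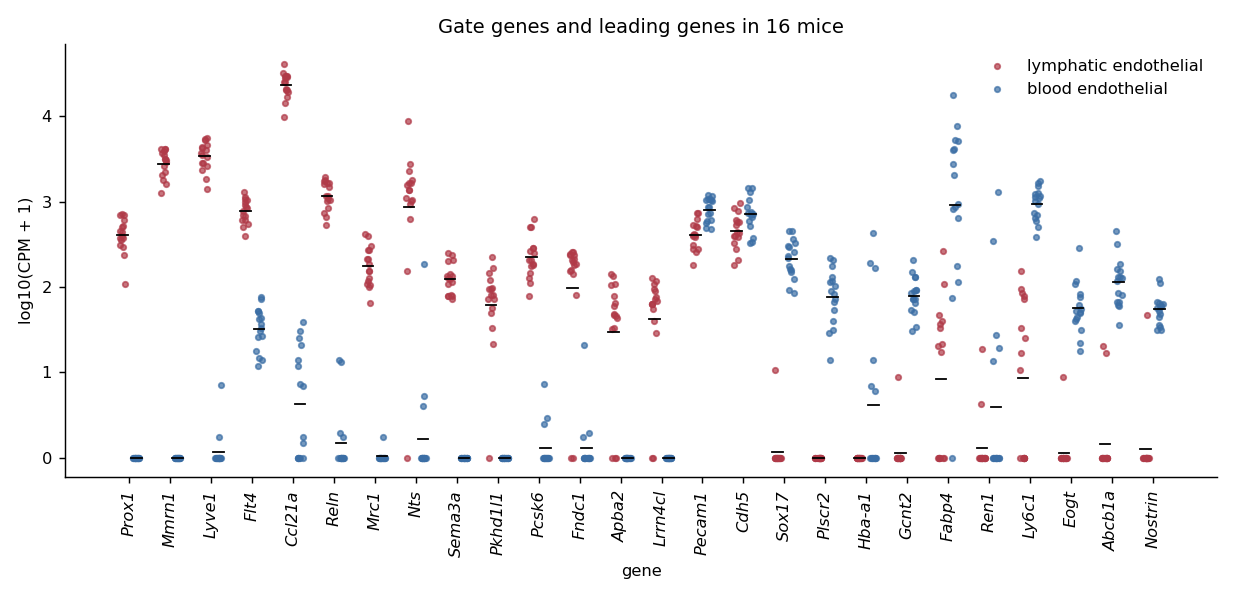
Levels of the genes of the rule, of the 10 leading higher genes and of the 10 leading lower genes, as log10 of CPM plus 1 without further scaling, in lymphatic and blood endothelial cells of the 16 mice; points are mice and black bars the means of the log10 values. Ccl21a and Reln separate the classes in every mouse, whereas Nts and Fabp4 overlap between them.

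Transcription factors of lymphatic identity were mostly higher. Of 13 factors, 9 could be tested, 7 of them were higher and none lower, with a median log2 fold change of 1.77 beside -0.05 over all genes. Maf, a leucine zipper factor, was at 801 ± 358 against 7.41 ± 9.18 CPM (SD, n = 16 mice), a difference of 6.22 ± 0.22. Tbx1, a T-box factor needed for lymphatic development, was at 108 ± 53.1 against 0.858 ± 1.94 CPM, and Nr2f2, the venous and lymphatic partner of Prox1, at 385 ± 116 against 52.8 ± 25.4 CPM, a difference of 2.82 ± 0.21. The flow-responsive Klf4 and Klf2 rose by 1.77 and 1.23, Nfatc1 by 2.15 and Foxc1 by 1.54 on the log2 scale.

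In Maf, Tbx1, Nr2f2 and Klf4 the groups did not overlap. Sox18, which switches on Prox1 in the embryo, was at 129 ± 62.6 against 135 ± 67.7 CPM (log2 fold change -0.07 ± 0.22, edgeR adjusted p = 0.837), and Gata2, a factor of lymphatic valves, at 64.3 ± 56.2 against 101 ± 70.0 CPM (edgeR adjusted p = 0.18). Foxc2, Hhex and Nr2f1 were too low to test. Foxc2 had a UMI in 24 of the 236 cells (10.2%) and in 1.35% of blood endothelial cells.

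Surface and secreted products formed the most uniform list. All 13 of the 15 that could be tested were higher, with a median log2 fold change of 5.15. Fgl2, a fibrinogen-like protein, was at 3919 ± 1044 against 51.0 ± 56.2 CPM (SD, n = 16), and Fxyd6, a regulator of the sodium pump, at 734 ± 280 against 8.10 ± 10.3 CPM. Thy1 was at 308 ± 169 against 7.71 ± 12.7 CPM, Pdpn (podoplanin, which binds the platelet receptor CLEC-2) at 481 ± 143 against 25.3 ± 32.1 CPM, and the scavenger receptor Stab1 at 489 ± 135 against 34.5 ± 15.7 CPM. Each of these was higher in 16 of 16 mice. Pdpn is also a stromal gene: before scaling it was at 447 CPM in lymphatic endothelial cells and 121 CPM in cells with at least 3 UMIs of fibroblast markers.

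The ligands of lymphatic growth were nearly absent from the lymphatic endothelial cells themselves. Vegfc had no UMI in the 236 cells, while 75 UMIs were counted in blood endothelial cells (8.55 ± 11.1 CPM before scaling, SD, n = 23 mice), 106 in cells with at least 3 UMIs of fibroblast markers (3.08 ± 3.08 CPM) and 30 in cells with as many UMIs of muscle and pericyte markers. Vegfd was at 16.1 ± 26.5 CPM in the muscle and pericyte group and 11.02 ± 11.4 CPM in the fibroblast group, against 2.09 ± 6.27 CPM, or 4 UMIs, in lymphatic endothelial cells. Ccbe1, the cofactor that helps to cut Vegfc into its active form, was at 12.0 ± 6.83 CPM in the fibroblast group and had 2 UMIs in lymphatic endothelial cells, where the protease Adamts3 had none. These levels are low in every class and were not tested between classes.

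Another ligand of the family stood out in the lymphatic endothelial cells themselves. Pgf, placental growth factor, which binds Flt1, was the 1 gene of this list that could be tested between the endothelial classes, and it rose by 4.20 ± 0.45 on the log2 scale (mean 735 against 36.0 CPM, range 243 to 1787 against 0 to 251 CPM over 16 mice; edgeR adjusted p = 7.73e-07), higher in 16 of 16 mice. Before scaling, its lowest, median and highest level was 223, 475 and 2000 CPM, the highest in HF. It was detected in 122 of the 236 cells (51.7%), against 3.05% of blood endothelial cells.

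Receptors of the VEGF, angiopoietin and TGF beta families split in both directions. Of 10 tested, 3 were higher and 5 lower, with a median of -0.58. Nrp2, the Vegfc coreceptor, rose by 0.88 ± 0.15 and Nrp1, the Vegfa coreceptor, fell by 5.29 ± 0.45 (15.0 ± 32.2 against 328 ± 153 CPM, SD, n = 16). Tgfbr2 and Tie1 rose by 2.34 and 1.35, and Ptprb, Acvrl1, Eng and Bmpr2 fell by 1.60, 1.56, 0.93 and 0.85. Kdr, the main Vegfa receptor, was at 587 ± 214 against 721 ± 159 CPM (edgeR adjusted p = 0.128) and Tek, the angiopoietin receptor, at 59.4 ± 42.9 against 78.1 ± 62.6 CPM (edgeR adjusted p = 0.529).

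Of the angiopoietin and adrenomedullin genes 5 of 8 could be tested, 3 were higher and 1 lower, with a median of 0.71. Angpt2, which lymphatic remodelling needs, was at 329 ± 259 against 40.7 ± 42.0 CPM (SD, n = 16), a rise of 2.64 ± 0.35, higher in 15 of 16 mice. The adrenomedullin receptor Calcrl and its partner Ramp2 rose by 0.86 and 0.71, and the alternative partner Ramp3 fell by 2.77. Adm, the peptide itself, was at 78.9 ± 78.6 against 93.0 ± 112 CPM (log2 fold change 0.01, edgeR adjusted p = 0.992). Angpt1 had no UMI in lymphatic endothelial cells and was at 13.1 ± 16.5 CPM, before scaling, in the muscle and pericyte group.

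**Figure D3:**
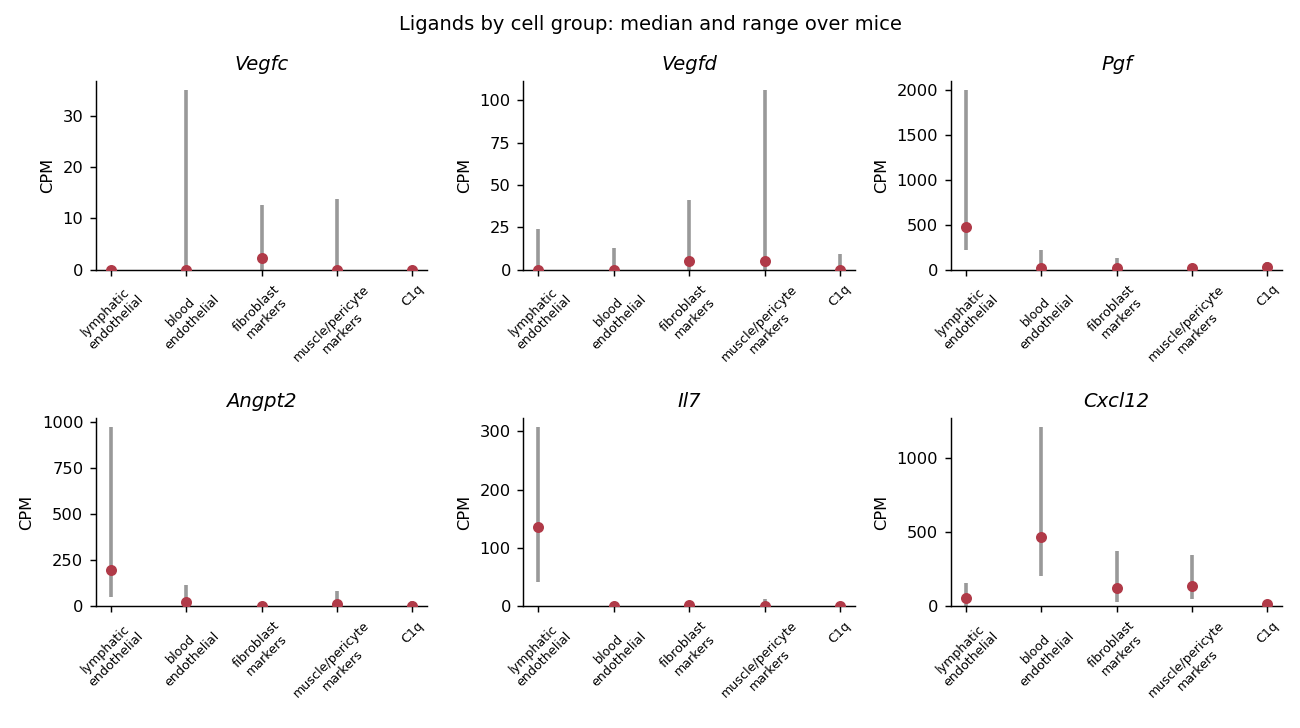
Unscaled CPM of Vegfc, Vegfd, Pgf, Angpt2, Il7 and Cxcl12 in lymphatic and blood endothelial cells and in cells chosen by fibroblast, muscle and pericyte, or C1q transcripts; points are medians and lines ranges over mice (16 for lymphatic endothelial cells, 23 for the others). Pgf, Angpt2 and Il7 have their highest median in lymphatic endothelial cells and Cxcl12 in blood endothelial cells.

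Genes of leukocyte traffic were divided evenly. Of 22, 17 could be tested, 7 were higher and 7 lower, with a median of 0.82. The higher genes were led by Il7, a survival factor for lymphocytes, at 150 ± 62.3 against 1.33 ± 2.65 CPM (SD, n = 16; difference 5.86 ± 0.40, no overlap), and by Ackr2, a scavenger of inflammatory chemokines, which rose by 4.96. Cd47, the sphingosine phosphate exporter Spns2 and kinase Sphk1, Ackr3 and Icam1 rose by 1.34, 1.05, 1.02, 0.98 and 0.82. Before scaling, Il7 was at 137 ± 65.6 CPM in lymphatic endothelial cells and did not exceed 13.3 CPM in any mouse in the blood endothelial, fibroblast, muscle or C1q groups.

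The lower genes included chemokines and adhesion proteins of blood vessels. Cxcl12, the ligand of CXCR4, was at 62.7 ± 43.6 against 658 ± 297 CPM (SD, n = 16; difference -3.33 ± 0.23, no overlap), and Vcam1 and Cx3cl1, which bind leukocytes, fell by 2.82 and 2.85. Cd274 (PD-L1), Csf1, Cd200 and S1pr1 fell by 2.98, 1.38, 1.13 and 0.58. Ccl2, Ccl7 and F11r did not pass. Ccl2 was at 580 ± 700 against 263 ± 369 CPM. Ackr4, Ccl20 and Madcam1 had no UMI in the 236 cells.

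Junction genes were mostly lower. Of 12, 9 could be tested, 1 was higher and 6 lower, with a median of -0.56. Esam, an adhesion molecule of tight junctions, was at 20.1 ± 16.4 against 475 ± 121 CPM (SD, n = 16; difference -4.28 ± 0.21), and Jam2 at 9.79 ± 18.4 against 202 ± 78.3 CPM. Neither overlapped. Rasip1, Tjp1, Egfl7 and Afdn fell by 0.84, 0.60, 0.56 and 0.54, and the calls of Egfl7 and Afdn were lost under scaling by library size. Cldn5, the main claudin of endothelium, was the 1 gene that rose, by 1.46 ± 0.44 (946 ± 334 against 414 ± 355 CPM; edgeR adjusted p = 0.0138).

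Most blood endothelial genes tested were lower. Of 21, 17 could be tested, 11 were lower and 2 higher, with a median of -2.25. Beside Sox17 and Ly6c1, the venous chemokine receptor Ackr1 was at 1.11 ± 4.43 against 96.4 ± 151 CPM, Vwf at 1.67 ± 3.89 against 70.2 ± 60.4 CPM, Rgcc at 68.8 ± 84.6 against 861 ± 376 CPM and Cd34 at 36.0 ± 42.4 against 361 ± 149 CPM (SD, n = 16). Ly6a, Cd36, Plvap, Sele and Dll4 fell by 4.89, 2.91, 2.25, 1.41 and 0.73. Plvap, which forms the diaphragms of blood capillaries, was lower in 14 of 16 mice, and pooled without scaling it was 650 against 576 CPM in the young and old individuals, 130 against 740 CPM in the aging pool and 118 against 1021 CPM in the diet pool.

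The 2 blood endothelial genes that rose were Cyp4b1, a cytochrome P450, at 221 ± 163 against 18.9 ± 31.8 CPM, and Hey1, a Notch target, at 78.4 ± 39.8 against 22.4 ± 22.7 CPM. Aqp1, the water channel, was at 933 ± 410 against 1020 ± 581 CPM, and Gpihbp1, which anchors lipoprotein lipase on capillaries, at 614 ± 275 against 701 ± 320 CPM. Neither of the last pair passed, nor did Notch1 and Selp.

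Valve and collecting vessel genes were called in both directions. Of 18 such genes 9 could be tested, 4 were higher and 2 lower, with a median of 0.24. Over all genes 17.5% were higher and 21.2% lower, so the 2 lower genes lie near the share of all genes. Beside Sema3a, the valve integrin Itga9 rose by 2.98 ± 0.33 (169 ± 58.5 against 15.7 ± 17.02 CPM, SD, n = 16, no overlap), its ligand Fn1 by 1.33 and Ephb4 by 1.32, while Nos3 and the connexin Gja4, which blood vessels share, fell by 1.91 and 1.84. Gja1, Efnb2 and the flow sensor Piezo1 did not pass.

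Among the 236 single cells, the valve genes Cldn11, Foxp2 and Celsr1 were found in 25, 33 and 24 (10.6%, 14.0% and 10.2%), against 0.599%, 0.250% and 1.15% of blood endothelial cells. At 1000 UMIs per cell they were found in 2.39%, 3.83% and 2.39% against 0.173%, 0.0577% and 0.346%, and Foxc2 in 2.87% against 0.519%. Cldn11 was also found in 1.61% of other cells at that depth.

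Nts was the least even of the leading genes from cell to cell. It was detected in 107 of the 236 cells, and the 5 cells with the most held 42.1% of its UMIs, against 14.3% for Ccl21a. Across mice, Nts before scaling was at 8845 CPM in Y1, 2727 in LP and 2281 in Ctrl1, at 154 in HF and at 0 in HF1. A UMI of Mki67 was found in 6 of the 236 lymphatic, 26 of the 2003 blood endothelial and 522 of the 38103 other cells, and one of Top2a in 4, 35 and 469, at unlike depths. Of 3 cell cycle genes tested Pcna fell by 0.83 and 2 did not pass.

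Matrix genes moved in both directions. Of 14, 8 could be tested, 4 were higher and 3 lower, with a median of 0.42. Ltbp4, which binds latent TGF beta, was at 1077 ± 345 against 202 ± 69.4 CPM (SD, n = 16, no overlap), and the laminin chain Lama4, Nid1 and Timp3 rose by 1.64, 0.80 and 0.75. The collagen IV chains Col4a2 and Col4a1 and the proteoglycan Hspg2 fell by 1.69, 1.36 and 1.23.

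Genes of lipid uptake were mostly lower, with 4 lower and 2 higher of 7 tested (12 in the list) and a median of -1.08. The lipoprotein receptor Scarb1 was at 17.8 ± 25.2 against 416 ± 157 CPM (SD, n = 16; difference -4.85 ± 0.28, no overlap), and Fabp5 and Plin2 fell by 2.75 and 1.08 beside Fabp4. Cd9, a tetraspanin, and the cholesterol exporter Abca1 rose by 1.53 and 0.86.

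Complement and antigen presentation gave 2 higher and 4 lower genes of 10 tested (13 in the list), with a median of -0.10, and the 2 higher and 4 lower of 10 stand beside 17.5% and 21.2% of all genes. Cd55, which shields cells from complement, was at 96.9 ± 43.4 against 10.1 ± 12.5 CPM (SD, n = 16), higher in 16 of 16 mice, and complement C3 rose by 2.87 ± 0.52. C3 varied with the library: before scaling it was at 446 CPM in young and 55.5 in old, 3.23 to 180 CPM in the aging pool and at 0 in CR1, Ctrl1 and HF1. The class I genes H2-K1, B2m and Psmb8 fell by 0.71, 0.56 and 1.10, and Cd59a by 2.06. Cd74 and H2-Ab1 of class II were at 182 ± 386 against 134 ± 166 CPM and 47.8 ± 47.8 against 35.2 ± 43.0 CPM, and neither passed.

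Of 12 genes tested for aging and interferon, 4 were higher and 5 lower, with a median of -0.47. The growth factor-binding protein Igfbp5 was at 1623 ± 1145 against 110 ± 128 CPM (SD, n = 16; difference 3.99), and Gdf15 and Bst2 rose by 2.39 and 0.76. The interferon-induced Ifit3, Irf7 and Ifit1 fell by 4.81, 3.65 and 2.35, and Igfbp7 and Igfbp3 by 3.00 and 4.11. Before scaling, Igfbp5 was at 1405 ± 967 CPM in lymphatic endothelial cells and at 956 CPM in fibroblast-marker cells, a difference that was not tested.

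Early response and heat shock genes, which enzymatic dissociation is known to raise, were higher for 11 of 19 and lower for 2, with a median of 0.62. Hspa1b, Hspa1a and Hsp90aa1 rose by 1.66, 1.36 and 1.02, and Fos, Jun and Junb by 0.62 to 0.64, while Ier3 and Ier2 fell by 1.82 and 0.92. Whether the early response occurred in the tissue or during dissociation cannot be told apart. Of 5 genes tested for androgen and steroid response, Nr3c1, the glucocorticoid receptor, rose by 0.60.

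Markers of other cell types differed between the endothelial classes as well. The pericyte gene Rgs5 was at 31.7 ± 105 against 449 ± 330 CPM (SD, n = 16) and fell by 5.31, and the basal keratins Krt15, Krt5 and Krt14 fell by 3.78, 3.27 and 2.67. Of the 3 prostate-like markers Tgm4 and Pate9 fell by 4.75 and 3.84, and the globins Hba-a1 and Hbb-bs were both lower. None of 8 secretory, 5 epididymis-like and 4 fibroblast markers tested passed. With the genes of the epithelial lists left out of the fit, 561 genes were higher and 724 lower. Without cells with 3 or more UMIs of fibroblast, muscle or basal markers, 464 were higher and 509 lower. The part of these transcripts in the calls of the list genes above was not tested.

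Without the young and old individuals the 16 lists kept the sign of their median, except complement and antigen presentation, which moved from -0.10 to 0.04. The numbers tested or called moved for 7 lists. Leukocyte traffic gave 5 higher and 7 lower of 16 tested (median 0.27), blood endothelial genes 2 higher and 8 lower of 16, junctions 1 higher and 4 lower of 8, identity factors 6 higher of 8, valve genes 3 higher and 1 lower of 7, and lipid uptake 2 higher and 3 lower of 6. Of the aging and interferon genes 11 could be tested, again with 4 higher and 5 lower.

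**Figure D4:**
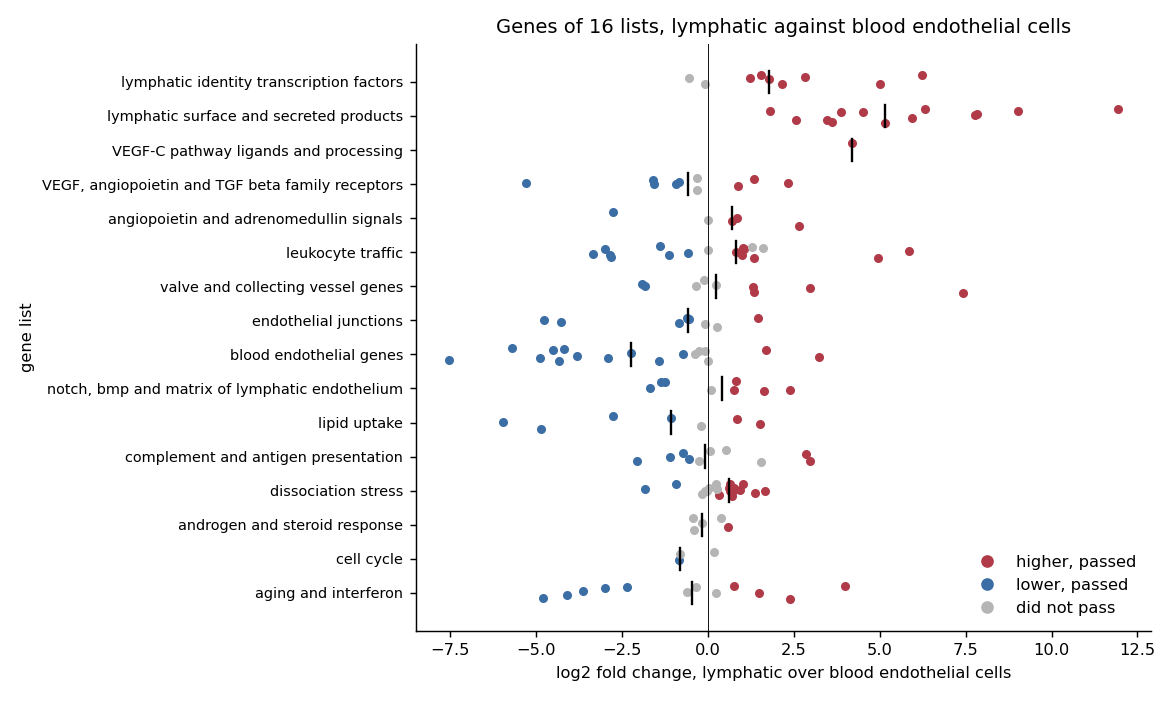
Log2 fold change between lymphatic and blood endothelial cells for every tested gene of the 16 lists (red, higher; blue, lower; grey, not passed), with the median of each list as a black bar. The surface and secreted products lie wholly to the higher side with a median of 5.15, and the blood endothelial genes have a median of -2.25.

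Lymphatic endothelial cells were also compared with all remaining cells that passed the filters, blood endothelial cells included. Of 11151 genes tested, 1735 (15.6%) were higher and 4196 (37.6%) lower in lymphatic endothelial cells, in the same 16 mice and with the same test. The split depended on the scaling, with 29.3% of called genes higher under TMM and 74.4% under library size, which moved the median log2 fold change from -0.42 to 0.56. Each single gene named below changed by more than that shift. Without the young and old individuals 1557 genes were higher and 4087 lower. At least 3 UMIs of secretory markers occurred in 55.6% of the other cells (here without blood endothelial cells) and in 63.6% of the lymphatic endothelial cells, and the 8 secretory markers were all lower in the latter, with a median of -5.65. Of the other marker lists every tested gene was lower (6 macrophage, 6 T and NK cell, 6 fibroblast, 6 smooth muscle and pericyte, 4 basal, 3 prostate-like, 3 globin and 2 platelet genes, and 1 each for B cells, Schwann cells and mesothelium), except 1 of 6 epididymis-like genes that did not pass. The rule removed cells with a Ptprc UMI or more than 2 C1q UMIs from the lymphatic endothelial cells and not from the cells compared with them, so the direction of the macrophage, T and NK cell and B cell markers was fixed by the choice. Under library size 4 of 6 smooth muscle and pericyte genes, 3 of 4 basal genes and 1 of 2 platelet genes were lower.

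The lists of endothelial genes were mostly higher against all remaining cells. Of 15 surface and secreted products 14 were higher, with a median of 4.04, and of 10 receptors 9 were higher and 1 lower, with a median of 3.01. Of 13 identity factors 10 were higher and 1 lower (median 2.12), of 16 valve genes 11 higher and 3 lower (median 2.08), and of 14 matrix genes 10 higher and 4 lower (median 1.78). Blood endothelial genes gave 9 higher and 5 lower of 19 tested (median 0.76). Leukocyte traffic gave 9 higher and 7 lower of 19 (median 0.57), and lipid uptake 4 higher and 6 lower of 11 (median -0.74). Over all genes 15.6% were higher and 37.6% lower. The lower counts of leukocyte traffic, blood endothelial, matrix and valve genes lie near or below that share. The list counts moved with the scaling, as did those over all genes (4302 higher and 1482 lower under library size). Under library size, leukocyte traffic gave 11 higher and 2 lower (median 1.59), lipid uptake 5 higher and 1 lower (median 0.22) and blood endothelial genes 10 higher and 3 lower (median 1.58). The surface and secreted products had 15 higher there and the receptors 9, with none lower in either list.

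Several receptors were among the leading genes of this comparison. Ccl21a again led, at 6531, 14647 and 21028 CPM as lowest, median and highest level against 1.19 to 228 CPM, a difference of 10.56 ± 0.77. Adgrg3, an adhesion G protein-coupled receptor, was at 47.8 to 285 CPM against at most 3.92 CPM, and Gpr182, a chemokine-scavenging receptor of lymphatic and sinusoidal endothelium, at 11.4 to 91.8 CPM against at most 0.511 CPM. Tbx1 was at 9.81 to 130 CPM against at most 1.31 CPM. In all 4 genes the groups did not overlap.

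Reln, Nts, the oxidase Duox2, Ackr2 and Apba2 completed the leading genes with differences of 8.83, 8.54, 8.13, 8.01 and 7.08. Gm21541, a near-identical copy of Ccl21a on chromosome 4, had 42 UMIs in lymphatic endothelial cells of the 16 mice. It is uncertain as a gene of its own.

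The 10 genes with the largest fall had no UMI in lymphatic endothelial cells, so only bounds hold. Against 3 counts over the 16 mice (2.08 CPM), pooled Msmb was at least 24.3-fold lower and Hba-a1 at least 20.4-fold. Pooled Spint5 was at least 28.9-fold lower, but its UMIs came from the cells of 2 of the 16 mice, and DESeq2 gave it a log2 fold change of 5.15 (adjusted p = 0.138). Pate8, Iglc2, Mia, Gzma, Lilr4b, Bcl2a1d and Cd79a followed with bounds from 9.98-fold down to 3.04-fold. With DESeq2 the calls of Msmb, Iglc2, Hba-a1, Spint5 and Cd79a were lost. Iglc2 and Cd79a mark B cells and Gzma cytotoxic lymphocytes, which the rule kept out of the lymphatic endothelial cells, and Hba-a1 marks red blood cells.

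Macrophages share Mrc1, Lyve1, Stab1 and Maf with lymphatic endothelium, and their levels were set side by side with the cells that had at least 3 UMIs of C1q genes. Before scaling, Mrc1 was lower in lymphatic endothelial cells (199 ± 106 CPM, SD, n = 16) than in the C1q cells (500 ± 201 CPM, SD, n = 23), while Stab1 was at 447 against 128 CPM, Maf at 738 against 182 CPM and Lyve1 at 3621 ± 1264 against 62.3 ± 59.9 CPM. Lyve1 and the C1q genes are part of the rule, and none of these 4 comparisons was tested. Adgre1, Csf1r, Fcgr1 and Cd163 were at 0 in the lymphatic endothelial cells, as given above, after the rule had left out cells with Ptprc or C1q transcripts.

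Lymphatic endothelial cells of the aging pool (8 mice with at least 5 cells) were also compared with those of the diet pool (CR1, Ctrl1 and HF1). Of 1573 genes tested with edgeR, 5 (0.318%) were higher and 4 (0.254%) lower in the aging pool, and 213 had an unadjusted p under 0.05. Levels were 170 to 434 CPM against 32.3 to 52.9 CPM for H2-T23, a nonclassical class I gene (282 ± 91.3 against 44.0 ± 10.6 CPM, SD; log2 difference 2.62), and 157 ± 49.1 against 18.6 ± 16.7 CPM for Aph1b, a gamma-secretase subunit. Ubb, Anxa5 and Cavin2, which encode ubiquitin, an annexin and a caveolar protein, rose by 1.16, 1.37 and 1.01. Gdpd3, a phosphodiesterase of lipid metabolism, was at 0 to 14.5 CPM in the aging pool and 344 to 468 CPM in the diet pool, a log2 difference of -6.56. Slc38a2, an amino acid transporter, Apold1 and the splicing factor Srsf2 fell by 1.39, 1.14 and 1.41.

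In none of the 9 genes did the pools overlap. The calls rested on 3 diet-pool mice. Without CR1, 11 genes were called, but Aph1b, Anxa5, Cavin2, Srsf2, Slc38a2 and Apold1 lost their calls. Without Ctrl1 or without HF1 only Gdpd3 was called, and among cells with under 3 UMIs of fibroblast, muscle and basal markers none was (158 with an unadjusted p under 0.05, edgeR). Gdpd3 was not among the genes tested in those cells, and the differences of the other 8 genes kept their direction, from 0.93 for Cavin2 to 3.38 for Aph1b and from -1.15 for Slc38a2 to -1.39 for Apold1. Strain, run, food and, for 6 of the 8 aging-pool mice, age differed together and cannot be told apart, and 3 of the 8 (20R1, 28R1 and 28R2) had received rapamycin, which no diet-pool mouse had. None of the tested genes of the 16 lists was called.

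**Figure D5:**
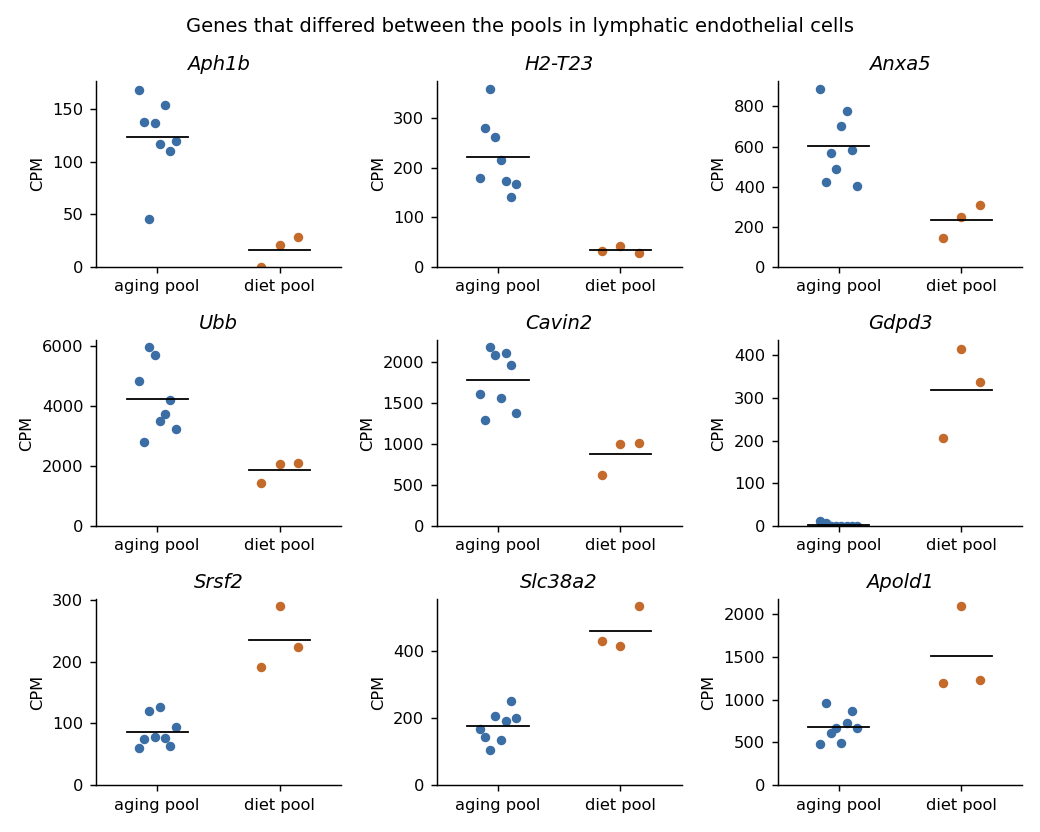
Unscaled CPM in lymphatic endothelial cells of the 9 genes called between the pools, for 8 aging-pool and 3 diet-pool mice; points are mice and bars means. Gdpd3 is near 0 in the aging pool, and the pools do not overlap in any of the 9 genes.

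The difference between lymphatic and blood endothelial cells was not shown to differ between the pools. Of 2499 genes 0 (0%) were called for the class by pool difference, with 120 at an unadjusted p under 0.05 by edgeR and 1 called by DESeq2. Pooled without scaling, Ccl21a was at 20637 CPM in the aging pool, 26309 in the diet pool, 24417 in the young and old individuals and 20295 in the single diet libraries. Reln was at 1188, 1175, 894 and 817 CPM, Sema3a at 144, 128, 109 and 96.1 CPM and Il7 at 123, 113, 118 and 144 CPM in the same order. In each of these 4 genes the lowest and the highest set lay within 2-fold of each other.

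Age was tested as a slope over 3, 20 and 28 months with rapamycin as a covariate, in the 8 aging-pool mice. Of 2035 genes 0 (0%) were higher and 2 (0.0983%) lower with age, with 86 at an unadjusted p under 0.05. Gm26917, a noncoding transcript, was at 425 and 451 CPM in Y1 and Y2 against 13.9 to 121 CPM in the older mice, a slope of -1.61 ± 0.24 log2 per 10 months (edgeR adjusted p = 0.00272). Krt8, an epithelial keratin, was at 129 CPM in Y1 and 461 CPM in Y2 against 11.1 to 49.6 CPM in the older mice, a slope of -1.78 ± 0.30 (edgeR adjusted p = 0.00910). Neither gene overlapped between Y1 and Y2 and the older mice.

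Without Y2 no gene was called. Gm26917 then had a slope of -1.53 (edgeR adjusted p = 0.144), and Krt8 was not among the genes tested. The call of Krt8 was also lost without 20C1 (slope -1.63, edgeR adjusted p = 0.0531) and with DESeq2 (slope -1.77, adjusted p = 0.0570). The secretory marker sum moved with Krt8. It was 196435 CPM in Y2, 48968 in Y1 and 118424 in 20C2, and 4757 to 8376 CPM in the other 5 mice. With the genes of the epithelial lists left out of the fit, 2 of 2133 genes were called, both lower with age. The part of secretory cell RNA in the level of Krt8 itself was not tested.

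For rapamycin 0 of 2035 genes (0%) were called, with 64 at an unadjusted p under 0.05 by edgeR. Diet was not tested, since each diet of the pool had at most 1 mouse with 5 lymphatic endothelial cells, and a fit across the pool and the single libraries was not run.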

How the data were processed

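The authors ran Cell Ranger 3.1.0 (single libraries) or 6.0.1 (tagged pools) on mm10, per the file headers and the submitters' processing notes, and deposited raw UMI counts per gene and cell without normalization. The age, drug and food of each tagged mouse came from table names and the study's supplement. Counts of 30406 genes shared by all 23 tables were read in Python 3.11.15. Cells were chosen as described above, and the members and gene lists were chosen with earlier results of these data known. No doublet caller was run; one alternative leaves out cells with at least 3 UMIs of fibroblast, muscle or basal markers. Of 53031 barcodes 320 occurred in more than 1 library, and no pair of lymphatic endothelial cells shared one.

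UMI sums per mouse (at least 5 cells) were tested with edgeR 4.0.16 (R 4.3.3; quasi-likelihood, TMM, filterByExpr), and p-values were adjusted by Benjamini-Hochberg over every gene in the fit (threshold 0.05). The lymphatic endothelial cells held 1554799 UMIs in all, from 6756 (HF2) to 310479 (Y2) in a mouse with any. Named genes were those of 16 pathway and 13 marker lists, the 5 most abundant, and the 10 (5 between mice) with the largest change in each direction past the threshold at a mean of at least 20 CPM. Some members of the lists are counted but not reported here by name. Promoters came from RefSeq (GRCm38.p6). Of these steps, the edgeR fits were tested on simulated counts. Alternatives were stricter gates, thinning to 1000 UMIs, library-size scaling, no filter on low counts, DESeq2 1.42.0 and at least 10 cells per mouse. Others were a replicate block, leaving out the genes of the epithelial lists, and leaving out each mouse or set.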

Additional observations from a re-analysis of the deposited data

Results flagged for a closer look

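Of 21 groups of 4 to 10 mice examined, 5 held a mouse far from the others by Dixon's 95% criterion, which chance alone meets in about 1 of 20 groups. The lymphatic share of endothelial cells was 36% in CR1, whereas the other 7 diet-pool mice lay between 0% and 12.5%. Nts was at 8845 CPM (unscaled) in Y1, against 625.2 to 1672 CPM in the other aging-pool mice with at least 5 lymphatic endothelial cells. Pcsk6 was at 509 CPM in 28R2, against 175 to 284 CPM in the same group of mice. Krt8 was at 461 CPM in Y2, against 11.1 to 129 CPM, with the secretory marker sum also highest in Y2. Fibroblast markers summed to 1395 CPM in the lymphatic endothelial cells of 20C1, against 0 to 126 CPM in the other aging-pool mice. No explanation of these values was tested.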

How the results depend on the processing

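Each summary value was recomputed under alternatives, here those other than leaving out 1 mouse or set, with the fits without young and old included. In 68 of these results the value kept its direction, side of the threshold or count within 1.5 times. Another 23 moved, 2 reversed and 2 grew stronger, and these are given below. Between lymphatic and blood endothelial cells, 381 genes were higher and 349 lower with at least 10 cells per mouse, 1304 were lower without a filter on low counts, and 88 were higher and 96 lower after thinning to 1000 UMIs, where only 429 genes could be tested. Against all other cells, 1045 were higher with at least 10 cells and 392 after thinning, and library-size scaling gave 4302 higher and 1482 lower. Of the 9 genes called between the pools, the count became 1 under the stricter gate, 0 in cells with few foreign UMIs, 5 under library size, 68 without the filter and 14 with DESeq2. The class by pool difference gave 7 calls without the filter and 1 with DESeq2 in place of 0. The 2 calls with age became 1 under the stricter gate, 1 when Pecam1 or Cdh5 was required, 4 in cells with few foreign UMIs, 31 without the filter and 1 with DESeq2, and rapamycin gave 4 calls without the filter. The share difference between diet pool and single libraries passed at -11.4 points with 2 UMIs of each pair in both gates and at -13.5 points after thinning (exact permutation test, adjusted p = 0.0298 in both). As a share of all cells it reversed to 0.165 points, and the difference between 3 months and older mice reversed to -0.0995 points. In each case the cause was not tested, beyond the smaller number of genes or mice that thinning and the limit of 10 cells leave.

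Leaving out 1 mouse or set at a time gave 328 to 600 higher and 359 to 672 lower genes against blood endothelial cells, and 830 to 1733 higher and 3759 to 4338 lower against all other cells, with 328, 359 and 830 without the aging pool. Calls ranged from 1 to 11 between the pools (1 without Ctrl1 or HF1), 0 to 3 for the class by pool difference (3 without 20C1), 0 to 6 for age (0 without Y2, 6 without Y1) and stayed at 0 for rapamycin. The share difference between aging and diet pool stayed within 21.8 to 27.4 points and past the threshold. That of 3 months against older mice ranged from -0.253 (without Y1) to 21.0 points (without Y2), that of rapamycin from -15.0 (without 20R1) to 2.50 points (without 20R2) with 0.367 without 28C2, that of diet from an F of 0.624 to 10.5, and that of diet pool against single libraries from -8.78 to -5.16 points.

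Among the named genes, Fabp4 lost its call with at least 10 cells per mouse (-4.59) and without the aging pool (-3.67), Ren1 reversed to 0.16 and Hba-a1 lost its call with DESeq2. Against all other cells, Spint5 reversed to 5.15, and Msmb, Iglc2, Hba-a1 and Cd79a lost their calls, all with DESeq2. No other gene among the 10 largest changes in each direction of these 2 comparisons lost its call under an alternative in which it could be tested, but several were not tested in every one, and Nostrin was tested in only 3 of 7 fits that leave out a library. Genes of the lists were recomputed under library size only, where Egfl7, Afdn and Jund lost their calls of 124 list genes called against blood endothelial cells, and 30 of 206 lost theirs against all other cells. Each of the 9 genes between the pools lost its call under at least 1 alternative, and all 9 did under the stricter gate, where another gene was called. The 1 gene left without Ctrl1 or without HF1 was Gdpd3. Numbers in the names of the aging-pool mice did not pair them: deviations of same-numbered mice correlated at -0.0923 on average over 12 pairs and those of differently numbered mice at -0.0858 over 13. With the replicate block 3 genes were called for age and 1 for rapamycin. The limit of 10 cells left too few mice for the comparisons between mice, and the diet fit was not run.

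Lymphatic endothelial cells numbered 0 to 44 in a mouse and held 1554799 UMIs in all. On simulated data, 98% and 90% of log2 changes of 2 and 1 were recovered against blood endothelial cells. The shares were 98% and 71% against all other cells and 90% and 42% between the pools. For age, where the changes of 2 and 1 were slopes per 10 months, they were 98% and 96%. Recovery was 91% and 24% for rapamycin and 39% and 6% for the class by pool difference. The changed genes were drawn only from those at or above the median expected count, so recovery of lower genes was not measured. Of the unchanged genes, 119 were called against all other cells (11159 genes in the fit) and 7 against blood endothelial cells (3350 genes). Another 5 were called between the pools, 10 for age, 9 for rapamycin and 1 for the class by pool difference. How far depth limited the calls themselves was not tested.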

Other observations

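Sema3d, a guidance signal of the same family as Sema3a, was at 224 ± 93.5 CPM (unscaled, SD, n = 16 mice) in lymphatic endothelial cells and at 2.09 CPM in blood endothelial cells. The 25 most abundant transcripts of the lymphatic endothelial cells held Hspb1, Fos, Jund, Jun and Hsp90aa1 of the dissociation list, at 5756 ± 3182, 4213 ± 1810, 3906 ± 1630.3, 3659 ± 1084 and 3356 ± 2060 CPM (unscaled, SD, n = 16 mice).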
